A study of Mus musculus with 14 samples.

Results

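The breakdown of fatty acids in mitochondria was followed through 37 genes that carry it out or control it: 6 regulators, 6 genes of fatty acid binding and activation, 4 of the carnitine shuttle, 7 acyl-CoA dehydrogenases, 5 genes of the later steps of the cycle, 3 enzymes for unsaturated fatty acids, 3 of the electron transfer flavoprotein system, and Pdk4, Acot13 and Ucp2. The genes were chosen by name, as members of the pathway, with earlier results of these data known. All 37 were found among the 23682 genes measured in every library, and all 37 passed the filter on low counts that left 18810 genes to test. The data are bulk RNA sequencing of whole kidneys from 14 mice, 1 library per mouse. Of these, 5 were double transgenic i-TERTci mice, which carry actin-rtTA+ and tetop-TERTci+ and express catalytically inactive telomerase (TERTci) when given doxycycline, and were injected with GSK2830371, an inhibitor of the phosphatase WIP1. They had 31, 49, 49, 49 and 28 days on doxycycline in the order of mice 1 to 5. Another 5 i-TERTci mice, with 29, 29, 29, 38 and 31 days on doxycycline, received the DMSO vehicle. The controls were 4 mice with the actin-rtTA+ transgene alone, all with 30 days on doxycycline, for which no injection is recorded. Doxycycline was thus shared by every group, and the transgene is driven in all tissues rather than in 1 kidney cell type. The i-TERTci mice become strongly proteinuric before injections begin, so the DMSO group is a model of established glomerular disease. The ages of the mice are not in the labels.

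Mitochondrial beta-oxidation shortens an activated fatty acid by an acetyl unit per turn, through a dehydrogenase, a hydratase, a further dehydrogenase and a thiolase, and passes electrons to the respiratory chain. Long chains must first be bound to coenzyme A and carried across the inner membrane on carnitine. The proximal tubule of the kidney relies on this pathway for much of its energy, and nuclear receptors of the PPAR and ERR families, with the PGC-1 coactivators, drive transcription of its enzymes.

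Values are normalised reads: whole reads divided by a size factor for the library. Libraries held 48.4 to 49.4 M reads in genes in GSK2830371 kidneys, 47.2 to 48.8 M in DMSO kidneys and 48.5 to 64.6 M in control kidneys. Mitochondrially encoded genes took 5.07% to 8.35% of the reads in GSK2830371 kidneys, 4.95% to 9.52% in DMSO kidneys and 14.4% to 24.2% in control kidneys. The 37 genes together took 0.532% to 0.712%, 0.52% to 0.802% and 0.539% to 0.72% of the other reads in GSK2830371, DMSO and control kidneys, ranges that overlapped. Xist RNA was abundant in 3 of 5 GSK2830371 libraries (mice 2, 3 and 4, those at 49 days), 2 of 5 DMSO libraries (mice 2 and 5) and 4 of 4 control libraries. Sex is therefore uneven between the groups and, in GSK2830371 mice, goes with time. The control libraries carry a separate, lower run of numbers in their column names, while GSK2830371 and DMSO libraries share a higher run. What these numbers stand for is not stated. In every comparison against control, a difference between these sets of libraries, or an effect of injection, cannot be told apart from genotype. Tert, the transgene's gene, had 231 to 2546 normalised reads in GSK2830371 kidneys, 574 to 2732 in DMSO kidneys and 117 to 183 in control kidneys, so each library stood on the side its label gives.

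Markers of several cell types differed between diseased and control kidneys. All 15 proximal tubule markers were found, none was at 0, and their summed normalised reads were 219518 to 530655 in GSK2830371 kidneys, 204009 to 479184 in DMSO kidneys and 719779 to 1242100 in control kidneys, with no overlap between diseased and control kidneys. Against control, 8 of these 15 fell and 2 rose in GSK2830371 kidneys, and 8 fell and 0 rose in DMSO kidneys (limma, adjusted p under 0.05). Summed macrophage markers were 11899 to 35461, 7418 to 37446 and 7655 to 11442, and summed neutrophil markers 265 to 15458, 501 to 25498 and 4.64 to 73.2, in GSK2830371, DMSO and control kidneys in that order, with Ly6g at 0 in all controls. Of the 7 macrophage markers, 3 rose and 0 fell in GSK2830371 kidneys, and 3 rose and 1 fell in DMSO kidneys. All 6 neutrophil markers rose in either group. Of the 9 collecting duct markers, 5 fell in either group. Of the 9 loop and distal tubule markers, 4 fell and 1 rose in either. Among all genes tested, 22.1% fell and 24.3% rose in GSK2830371 kidneys, and 23.1% fell and 25.2% rose in DMSO kidneys. Summed collecting duct markers were 30939 to 43897, 18386 to 44750 and 52476 to 59202 in GSK2830371, DMSO and control kidneys. Summed loop and distal tubule markers were 222172 to 509058, 254747 to 878673 and 237367 to 412301 in that order, ranges that overlapped. Summed adipocyte markers reached 10556 in GSK2830371 mouse 4, stayed at or under 234 in the other diseased kidneys and were 32.5 to 787 in control kidneys. In bulk tissue, fewer cells of a type and less RNA per cell cannot be told apart, and the part of cell make-up in the results that follow was not tested.

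Against control kidneys, the pathway did not move as a block: some genes rose and about as many fell, in 2 cases the partner subunits of 1 enzyme or dimer. In GSK2830371 kidneys 7 of the 37 rose and 8 fell (40.5% called), against 24.3% rising, 22.1% falling and 46.3% called among all genes tested. In DMSO kidneys 8 rose and 8 fell (43.2% called), against 25.2% rising, 23.1% falling and 48.3% called among all genes. Both shares lie close to that background, so the members were called about as often as any gene. The median log2 fold change of the 37 was 0.06 in GSK2830371 and 0.14 in DMSO kidneys, beside 0.01 and 0.03 over all genes. Libraries of the 2 groups did not overlap at all for 13 members in GSK2830371 kidneys (6 above and 7 below, 35.1%, against 40.3% of all genes) and for 14 in DMSO kidneys (8 above and 6 below, 37.8%, against 38.8%). The comparisons share the 4 control libraries. With reads scaled to the total outside the mitochondrial genome, the DMSO count became 11 higher and 6 lower, beside 28.2% and 17.9% of all genes, and the median over all genes 0.15 in place of 0.03. Counts moved by over 1.5 times under 3 settings, and that scaling was not among them. DMSO kidneys had 5 genes called higher with Xist status as a covariate (19% of all genes) and 4 among Xist-positive libraries (16.5%). GSK2830371 kidneys had 1 gene called higher among libraries at 31 days or fewer (19.1%), where 2 GSK2830371 libraries remain.

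**Figure D1:**
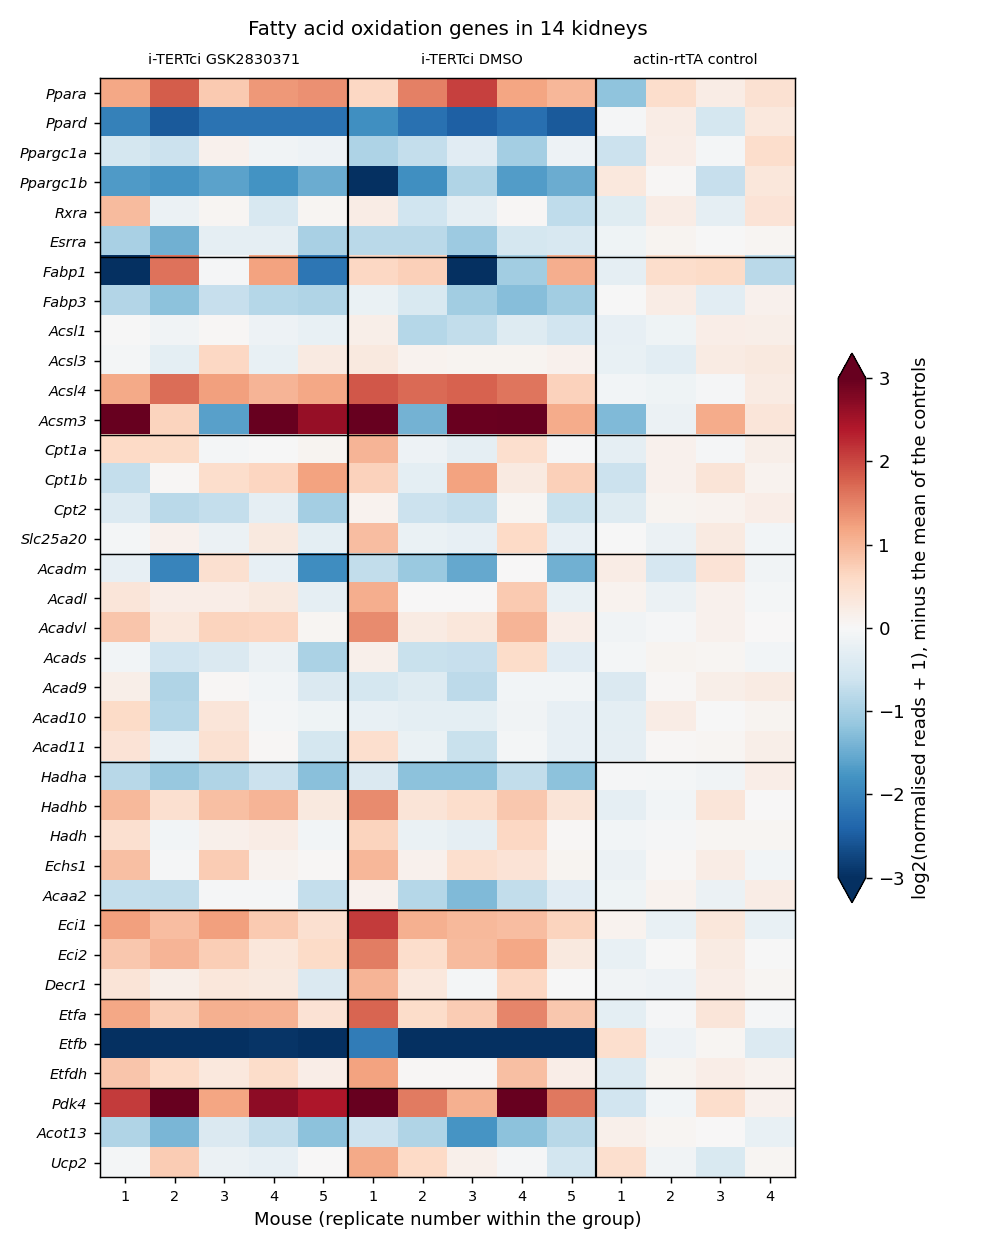
Each row is a gene and each column a mouse, with GSK2830371, DMSO and control mice from left to right; color gives log2(normalised reads + 1) minus the mean of the 4 controls, cut off at -3 and 3, and black lines part the roles. Ppard, Ppargc1b, Hadha and Etfb are below the controls in all 10 diseased kidneys, Acsl4, Eci1, Etfa and Pdk4 above them, and DMSO mouse 1 is the darkest red column of its group.

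Among the diseased libraries 1 stood apart. DMSO mouse 1 had the highest value of its group for 26 of the 37 genes and a median deviation of 0.70 on the log2 scale from the group's median, while no other DMSO library was highest in more than 5. Without it, 7 genes were called higher and 9 lower in DMSO kidneys, against 23.9% higher and 22.1% lower among all genes. The same library had the most reads in neutrophil markers (25498) and a proximal tubule sum inside its group's range (333410). Its sum of loop and distal tubule markers (878673) was the highest of all kidneys. So was its sum of nuclear genes that stand for mitochondrial content (364303), while its sum of fatty acid synthesis genes (65810) was the lowest of its group. The part of these in its values for the 37 genes was not tested. GSK2830371 mice 2 and 5 were each lowest of their group for 13 genes, and control mouse 1 was lowest for 20. The spread between mice, as the SD on the log2 scale, had a median over the 37 genes of 0.34 in GSK2830371, 0.49 in DMSO and 0.26 in control kidneys.

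Of the 6 regulators, some rose and others fell. Ppara, the fatty acid receptor that switches on oxidation genes, rose in both diseased groups, and Ppard, its widely expressed relative, fell steeply. Ppara had 2805, 4394, 2156, 3073 and 3225 normalised reads in GSK2830371 kidneys, 1918, 3571, 5207, 2834 and 2494 in DMSO kidneys and 542, 1798, 1470.1 and 1713 in control kidneys. Every diseased kidney lay above every control, and control mouse 1 lay far below the other controls. The log2 fold change against control was 1.28 in GSK2830371 kidneys (adjusted p = 0.00706) and 1.27 in DMSO kidneys (adjusted p = 0.00712). The call did not hold in GSK2830371 libraries at 31 days or fewer (1.26, adjusted p = 0.0608) or in Xist-positive DMSO libraries (1.25, adjusted p = 0.0669).

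Ppard had 1020.0, 725, 899, 899.8 and 895 normalised reads in GSK2830371 kidneys, 1179, 884, 763, 867 and 725 in DMSO kidneys and 4115, 4904, 2922 and 5232 in control kidneys. Every control lay far above every diseased kidney, and the diseased kidneys lay close together. Ppard fell by 2.25 in GSK2830371 kidneys (SE 0.19, adjusted p = 4.85e-07) and fell by 2.27 in DMSO kidneys (SE 0.19, adjusted p = 3.98e-07) on the log2 scale. Both calls held under every alternative tried. Within a library the ratio of Ppara to Ppard reads was 2.4 to 6.06 in GSK2830371 kidneys, 1.63 to 6.83 in DMSO kidneys and 0.132 to 0.503 in control kidneys, so the more abundant of the pair by reads was Ppara in all diseased kidneys and Ppard in all controls. This ratio was chosen after the values were seen and is given with no test.

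The PGC-1 coactivators, which bind these receptors and raise mitochondrial gene transcription, were unlike each other. Ppargc1b, which encodes PGC-1 beta, had 256, 241, 273, 239.9 and 295 normalised reads in GSK2830371 kidneys, 81, 229, 439, 260.0 and 295 in DMSO kidneys and 1024, 853, 508 and 1056 in control kidneys. All diseased kidneys lay below all controls, with DMSO mouse 1 the lowest. It fell by 1.67 (adjusted p = 0.00177) in GSK2830371 kidneys and fell by 1.85 (adjusted p = 0.000754) in DMSO kidneys on the log2 scale. Ppargc1a, which encodes PGC-1 alpha, had 2446, 2246, 3846, 3283 and 3151 in GSK2830371 kidneys, 1850.0, 2120.3, 2762, 1723 and 3134 in DMSO kidneys and 2228, 3991, 3376 and 5019 in control kidneys. The controls spread widely: control mouse 1 lay inside the range of DMSO kidneys, and GSK2830371 mouse 3 lay above 2 of the 4 controls. Its log2 fold change was -0.25 in GSK2830371 kidneys (adjusted p = 0.403) and -0.63 in DMSO kidneys, where it passed narrowly (adjusted p = 0.0392). That DMSO call was lost without DMSO mouse 1 (-0.56, adjusted p = 0.0804), DMSO mouse 2 (-0.61, adjusted p = 0.0673), DMSO mouse 4 (-0.54, adjusted p = 0.0892), control mouse 2 (-0.57, adjusted p = 0.102), control mouse 3 (-0.65, adjusted p = 0.0624) or control mouse 4 (-0.46, adjusted p = 0.146), and under 6 other settings.

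Esrra, the orphan receptor ERR alpha that works with PGC-1 on oxidative genes, had 2721, 1983, 4434, 4457 and 2732 normalised reads in GSK2830371 kidneys, 3062, 3079, 2536, 3761 and 3870.1 in DMSO kidneys and 4938, 5714, 5313 and 5592 in control kidneys. Controls were tightly grouped above all diseased kidneys, and GSK2830371 mice 3 and 4 came nearest to them. Its log2 fold change was -0.79 in GSK2830371 kidneys (adjusted p = 0.00773) and -0.74 in DMSO kidneys (adjusted p = 0.0109). The DMSO call was lost with Xist status as a covariate (-0.59, adjusted p = 0.0707), with scaling to reads outside the mitochondrial genome (-0.62, adjusted p = 0.0518) and in Xist-positive libraries (-0.64, adjusted p = 0.116), the last of which also ended the GSK2830371 call (-0.66, adjusted p = 0.0608). Rxra, the partner with which PPARs bind DNA, ranged from 5602 to 14964 in GSK2830371 kidneys, 4573 to 9117 in DMSO kidneys and 6001 to 10336 in control kidneys, and did not pass in either comparison. With Xist status as a covariate it passed as lower in DMSO kidneys (-0.69, adjusted p = 0.0393). GSK2830371 mouse 1 held its highest value.

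**Figure D2:**
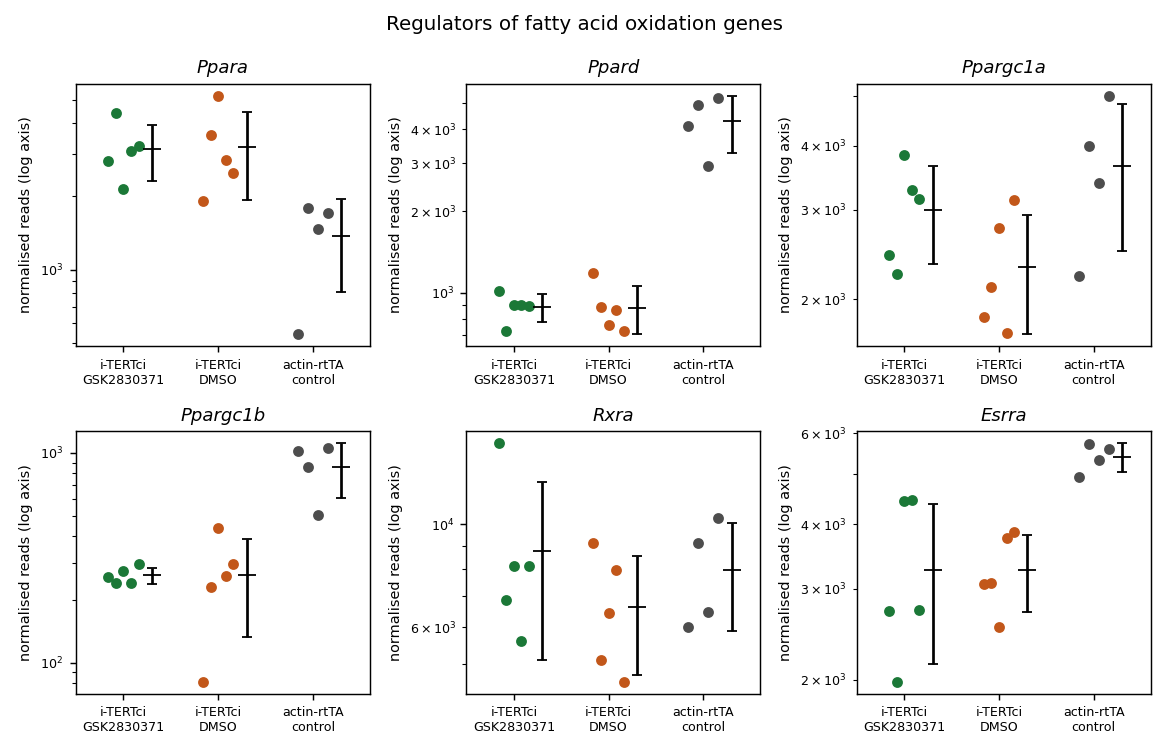
Normalised reads of the 6 regulators on a log axis, 1 point per mouse, with the mean and SD beside each group (n = 5 GSK2830371, 5 DMSO and 4 control mice). Ppard, Ppargc1b and Esrra lie below the controls in every diseased kidney and Ppara above them, while Ppargc1a and Rxra overlap.

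Fatty acid binding and activation held a gene that rose, a gene that fell and 4 that passed in neither comparison. Acsl4, the acyl-CoA synthetase that prefers arachidonate and other polyunsaturated chains, had 4398, 6392, 4764, 4061 and 4531 normalised reads in GSK2830371 kidneys, 7383, 6519.6, 6836, 6152 and 3236 in DMSO kidneys and 1889, 1842, 1981 and 2385 in control kidneys. Each diseased kidney was above the highest control, with DMSO mouse 5 well below the rest of its group. It rose by 1.24 (SE 0.21, adjusted p = 0.000297) in GSK2830371 kidneys and 1.53 (SE 0.21, adjusted p = 5.16e-05) in DMSO kidneys on the log2 scale, under every alternative. Acsl4 is also expressed in myeloid cells, whose marker sums are given above. Fabp3, the heart-type fatty acid binding protein, had 1878, 1486, 2148, 1899 and 1838 in GSK2830371 kidneys, 3019, 2537, 1689.7, 1436 and 1668 in DMSO kidneys and 3416, 4023, 2783 and 3764 in control kidneys. GSK2830371 kidneys lay below all controls, and DMSO mouse 1 alone reached into the control range. It fell by 0.91 (adjusted p = 0.00206) and fell by 0.80 (adjusted p = 0.00469) on the log2 scale in GSK2830371 and DMSO kidneys, again under every alternative. Striated muscle, another source of Fabp3, gave marker sums of 58.6 to 133 normalised reads in GSK2830371 kidneys, 32.8 to 325 in DMSO kidneys and 259 to 370 in control kidneys.

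Acsl1, the synthetase most tied to oxidation of long chains, had 20336, 18927, 20912, 18402 and 17494 normalised reads in GSK2830371 kidneys, 22988, 11296, 12306, 15582 and 13625 in DMSO kidneys and 17161, 18581, 23565 and 23071 in control kidneys. The 3 groups overlapped, and DMSO mouse 1 was the highest of its group. Against control it had a log2 fold change of -0.09 in GSK2830371 kidneys (adjusted p = 0.729) and -0.48 in DMSO kidneys, just short of the threshold (adjusted p = 0.0552). Acsl1 passed in DMSO kidneys without DMSO mouse 1 (-0.64, adjusted p = 0.00539), without control mouse 1 (-0.56, adjusted p = 0.0462) and among Xist-positive libraries (-0.72, adjusted p = 0.0249). Acsl3, a synthetase of the endoplasmic reticulum and lipid droplets, ranged from 474 to 900.1 in GSK2830371 kidneys, 618 to 713 in DMSO kidneys and 472 to 715 in control kidneys. Fabp1, the liver-type binding protein, was scarce throughout, at 2.25 to 92.9 in GSK2830371 kidneys, 0.927 to 63.8 in DMSO kidneys and 16.5 to 44.1 in control kidneys. Neither passed in either comparison.

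Acsm3, a medium-chain acyl-CoA synthetase, had values that scattered widely. It had 1869.8, 77.4, 14.8, 479 and 297 normalised reads in GSK2830371 kidneys, 4338, 17.4, 385, 14984 and 106 in DMSO kidneys and 18.7, 42.7, 105 and 62.4 in control kidneys. Most of the reads were in DMSO mice 4 and 1, both Xist-negative, and either diseased group overlapped the controls. The log2 fold change was 2.04 (95% interval -1.74 to 5.82, adjusted p = 0.361) in GSK2830371 kidneys and 3.48 (95% interval -0.30 to 7.26, adjusted p = 0.117) in DMSO kidneys by limma. The count models called it higher in DMSO kidneys (edgeR 6.09, adjusted p = 0.0106; DESeq2 6.11, adjusted p = 7.58e-05), and DESeq2 also in GSK2830371 kidneys (3.25, adjusted p = 0.0445). Limma called it in DMSO kidneys once DMSO mouse 2, 1 of the 2 Xist-positive libraries, was left out (4.71, adjusted p = 0.0291). With Xist status as a covariate the log2 fold change was 0.20 (adjusted p = 0.919) in GSK2830371 and 0.72 (adjusted p = 0.719) in DMSO kidneys, and among Xist-positive libraries it was 0.78 (adjusted p = 0.603) in GSK2830371 and turned to -0.14 (adjusted p = 0.942) in DMSO kidneys. Exons of Acsm3 overlap Eri2 on the opposite strand over 39.7% of their length, and the strand setting of the counting is not known. Eri2 itself was not called in GSK2830371 kidneys (0.21, adjusted p = 0.508) and was called higher in DMSO kidneys (0.62, adjusted p = 0.046).

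The carnitine shuttle, which moves long chains into the mitochondrion, had 1 gene of 4 called, in 1 comparison. Cpt1a, the rate-limiting outer-membrane transferase, had 27299.7, 27203, 17396, 17871 and 19048 normalised reads in GSK2830371 kidneys, 36489, 16298, 15116, 25610.4 and 17757 in DMSO kidneys and 14984, 19849, 17826 and 20408 in control kidneys. All groups overlapped, and DMSO mouse 1 was again highest. Its log2 fold change was 0.23 (95% interval -0.30 to 0.76) in GSK2830371 kidneys and 0.21 (95% interval -0.32 to 0.74) in DMSO kidneys, and neither passed. Slc25a20, the carnitine-acylcarnitine carrier of the inner membrane, did not pass either, with 2196 to 3256 in GSK2830371 kidneys, 2262 to 5071 in DMSO kidneys and 2372 to 3242 in control kidneys. Cpt1b, the muscle-type transferase, was the lowest of the 37 per kilobase of exon in each group, at 13.5 to 54.2, 18.3 to 53.8 and 14.3 to 30.1 normalised reads in GSK2830371, DMSO and control kidneys, and shares 81.4% of its exon length with another gene model on the same strand, Gm44502.

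Cpt2, the inner-membrane transferase that returns the chain to coenzyme A, had 5624, 4284, 4554, 6199 and 3719 normalised reads in GSK2830371 kidneys, 8046, 4833, 4573, 7883 and 4722 in DMSO kidneys and 5766, 7961, 8099.8 and 8619 in control kidneys. Control mouse 1 lay inside the range of either diseased group, and DMSO mice 1 and 4 reached the lower controls. Cpt2 fell in GSK2830371 kidneys by 0.65 on the log2 scale (adjusted p = 0.0219) and had a log2 fold change of -0.37 in DMSO kidneys (adjusted p = 0.166), where it passed among Xist-positive libraries (-0.66, adjusted p = 0.041). The GSK2830371 call was lost without GSK2830371 mouse 5 (-0.56, adjusted p = 0.0564), control mouse 2 (-0.62, adjusted p = 0.0557), control mouse 3 (-0.62, adjusted p = 0.0521) or control mouse 4 (-0.59, adjusted p = 0.0651), and among libraries at 31 days or fewer (-0.72, adjusted p = 0.06). Directly compared, GSK2830371 and DMSO kidneys differed in Cpt2 by -0.28 (95% interval -0.71 to 0.15), so a call in the first comparison and not in the second does not show that the groups differ.

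The 7 acyl-CoA dehydrogenases catalyse the opening step for chains of different length, and 1 of them was called. Acadvl, for very long chains, had 15303, 10737, 13629.5, 13479 and 9009 normalised reads in GSK2830371 kidneys, 22998, 10281, 10860.2, 17439 and 9889 in DMSO kidneys and 8032, 8412, 9410.5 and 8616 in control kidneys. DMSO kidneys all lay above the controls, and GSK2830371 mouse 5 lay inside the control range. The log2 fold change was 0.51 in GSK2830371 kidneys (adjusted p = 0.0961) and 0.65 in DMSO kidneys (adjusted p = 0.0363), so it passed in DMSO kidneys alone. The difference between the diseased groups was -0.14 (95% interval -0.62 to 0.34). The DMSO call was lost without DMSO mouse 1 (0.45, adjusted p = 0.0833), DMSO mouse 4 (0.55, adjusted p = 0.0824), control mouse 1 (0.61, adjusted p = 0.0818), control mouse 2 (0.64, adjusted p = 0.0757) or control mouse 4 (0.65, adjusted p = 0.0689). It was also lost in Xist-positive libraries (0.23, adjusted p = 0.362), with Xist status as a covariate (0.47, adjusted p = 0.189), at 31 days or fewer (0.55, adjusted p = 0.118), on the deposited values (0.66, adjusted p = 0.052) and with only the 2 groups in the fit (0.65, adjusted p = 0.0518). The GSK2830371 comparison passed with only its own 2 groups in the fit (0.51, adjusted p = 0.0297), in Xist-positive libraries (0.54, adjusted p = 0.0211), on the deposited values (0.52, adjusted p = 0.0276) and with scaling to reads outside the mitochondrial genome (0.62, adjusted p = 0.0148). Dvl2, which overlaps 42.9% of the Acadvl exons on the opposite strand, was not called in either comparison.

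Acadm, the medium-chain dehydrogenase, was the most abundant of the 37 genes per kilobase of exon, averaging 14986 normalised reads per kilobase in control kidneys against 7065 for the next, Acot13. It had 48328, 14527, 79749, 47814 and 15797 normalised reads in GSK2830371 kidneys, 34041, 26282, 19743, 57713 and 20863 in DMSO kidneys and 66202, 40405, 75299 and 52649.7 in control kidneys. GSK2830371 mice 2 and 5 and DMSO mice 2, 3 and 5 lay far below the others, DMSO mouse 1 also lay below every control, and the remaining 4 diseased kidneys lay in or above the control range. The log2 fold change was -0.77 (95% interval -1.76 to 0.22) in GSK2830371 kidneys and -0.97 (95% interval -1.96 to 0.025) in DMSO kidneys, and neither passed (adjusted p = 0.189 and 0.0987). It passed in DMSO kidneys without DMSO mouse 4 (-1.21, adjusted p = 0.0447), with only the 2 groups in the fit (-0.97, adjusted p = 0.0251), at 31 days or fewer (-1.21, adjusted p = 0.0122) and on the deposited values (-0.96, adjusted p = 0.0281).

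The other 5 dehydrogenases passed in neither comparison. Acadl, for long chains, had a log2 fold change of 0.16 in GSK2830371 and 0.33 in DMSO kidneys, with 8199.8 to 12786, 8428 to 20892 and 8803 to 10889.6 normalised reads in GSK2830371, DMSO and control kidneys. Acads, for short chains, stood at -0.44 and -0.20, with 3340.5 to 6083, 3958 to 9445 and 6036 to 6833 in the same order of groups. Acad9, also an assembly factor of respiratory complex I, had -0.24 and -0.37, with 1015 to 2117, 1087 to 1777 and 1386 to 2225 normalised reads. Their 95% intervals all held 0 and reached no further than a log2 of 1. Acad10 (-0.022 and -0.23) and Acad11 (0.034 and -0.13), dehydrogenases of less settled substrate, complete the family, and GSK2830371 mouse 2 gave the lowest Acad10 value of all 14 kidneys at 3102.

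Hadha and Hadhb encode the alpha and beta subunits of the mitochondrial trifunctional protein, which carries out the later steps for long chains, and they went opposite ways. Hadha had 10454, 8466, 9977, 11969.5 and 7849 normalised reads in GSK2830371 kidneys, 13905, 8047, 8042, 11283 and 8045 in DMSO kidneys and 18291, 18083, 17298 and 21519.9 in control kidneys. Hadhb had 10477, 7479, 10022, 10878 and 6481 in GSK2830371 kidneys, 14321, 6974, 7616, 9390.1 and 6984 in DMSO kidneys and 4389, 5003, 6845 and 5355 in control kidneys. For Hadha every diseased kidney was below every control, and for Hadhb every DMSO kidney was above every control while GSK2830371 mouse 5 lay just below the highest control. Hadha fell by 0.96 (SE 0.19, adjusted p = 0.000898) in GSK2830371 kidneys and fell by 0.96 (SE 0.19, adjusted p = 0.000784) in DMSO kidneys on the log2 scale, under every alternative. Hadhb rose by 0.74 (SE 0.23, adjusted p = 0.0152) in GSK2830371 kidneys and 0.71 (SE 0.23, adjusted p = 0.0182) in DMSO kidneys. The Hadhb calls were lost without control mouse 1, in GSK2830371 (0.64, adjusted p = 0.053) and in DMSO kidneys (0.61, adjusted p = 0.0612), with Xist status as a covariate in DMSO kidneys (0.60, adjusted p = 0.0875), in Xist-positive DMSO libraries (0.39, adjusted p = 0.198) and in GSK2830371 libraries at 31 days or fewer (0.63, adjusted p = 0.138).

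Within a library the ratio of Hadha to Hadhb reads was 0.995 to 1.21 in GSK2830371 kidneys, 0.971 to 1.2 in DMSO kidneys and 2.53 to 4.17 in control kidneys. This ratio needs no scaling between libraries, and its ranges in diseased and control kidneys stood well apart. DMSO mouse 1, high for both genes, had the lowest ratio of its group but lay close to the other diseased kidneys. The ratio was chosen after the values were seen, so no test is given, and it shows unequal change of the pair of genes rather than which of them moved.

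The pair is arranged head to head on chromosome 5, and 85 bases lie between the annotated starts of Hadha (minus strand) and Hadhb (plus strand) in the GENCODE M21 annotation of GRCm38. Their promoter windows, each of 250 bases before and 50 after the RefSeq start, share 228 bases. The RefSeq starts lie farther apart, with 272 bases between them. The window of Hadhb (RefSeq, GRCm38.p6, chr5:30155003-30155302, plus strand) is shown because most of it is also in the window of Hadha, the gene that moved the other way. Capitals mark the bases shared with the window of Hadha.
Hadhb: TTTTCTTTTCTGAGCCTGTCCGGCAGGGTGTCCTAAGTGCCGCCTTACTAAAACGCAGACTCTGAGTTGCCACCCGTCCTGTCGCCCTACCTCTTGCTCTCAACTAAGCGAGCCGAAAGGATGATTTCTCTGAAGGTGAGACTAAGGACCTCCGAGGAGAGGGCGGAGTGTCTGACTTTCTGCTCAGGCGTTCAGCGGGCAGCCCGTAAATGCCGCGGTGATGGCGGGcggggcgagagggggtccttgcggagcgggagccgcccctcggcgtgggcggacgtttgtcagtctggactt

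**Figure D3:**
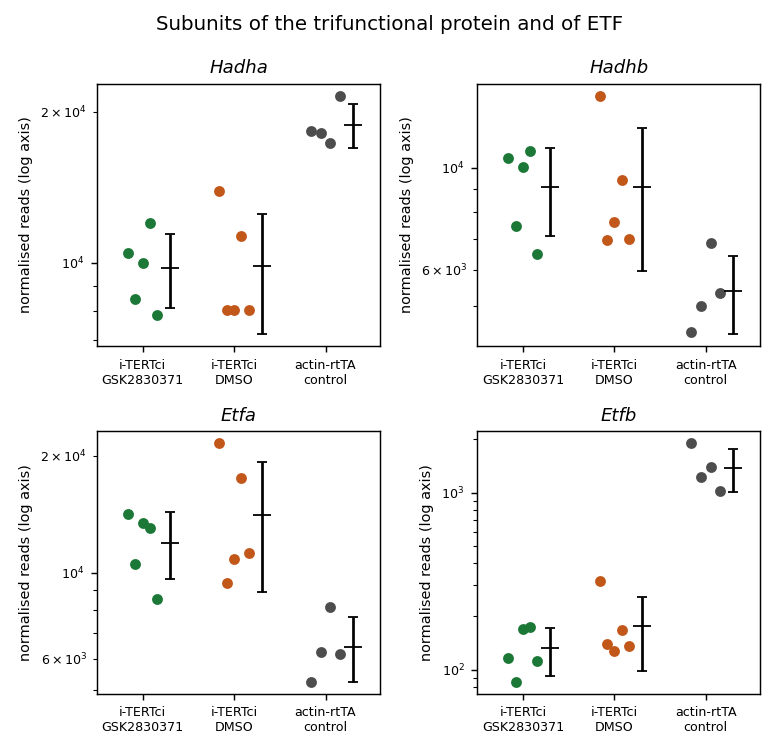
Normalised reads of the trifunctional protein genes Hadha and Hadhb and of the electron transfer flavoprotein genes Etfa and Etfb on a log axis, 1 point per mouse, with the mean and SD beside each group (n = 5 GSK2830371, 5 DMSO and 4 control mice). In each pair 1 gene lies below the controls in all diseased kidneys (Hadha, Etfb) and the other was called higher (Hadhb, Etfa).

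The single-function enzymes of the later steps passed in neither comparison. Echs1, the enoyl-CoA hydratase, had 6779 to 13001 normalised reads in GSK2830371 kidneys, 7438 to 13863 in DMSO kidneys and 6152 to 8169 in control kidneys, with log2 fold changes of 0.35 and 0.42 against control. Hadh, the dehydrogenase for shorter chains, had 15257 to 22836 in GSK2830371 kidneys, 13556 to 25604 in DMSO kidneys and 15297 to 16996 in control kidneys, with changes of 0.14 and 0.17. Acaa2, the thiolase of the final step, had 6033, 5949, 9667, 9605 and 6009 in GSK2830371 kidneys, 10852, 5478, 3936, 5898 and 7834 in DMSO kidneys and 8949, 10601, 8710.5 and 11431 in control kidneys. GSK2830371 mice 3 and 4 and DMSO mouse 1 lay inside the control range and the other 7 diseased kidneys below it. Acaa2 had a log2 fold change of -0.44 in GSK2830371 kidneys (adjusted p = 0.166) and -0.62 in DMSO kidneys (adjusted p = 0.055), and it passed in the DMSO comparison without DMSO mouse 1 (-0.81, adjusted p = 0.0095) or without DMSO mouse 5 (-0.69, adjusted p = 0.0445).

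Eci1 and Eci2, enoyl-CoA isomerases that shift double bonds of unsaturated chains so that the cycle can go on, rose in both groups. Eci1 had 6919, 5574, 6923, 5084 and 4096 normalised reads in GSK2830371 kidneys, 12564, 6147, 5824, 5640.0 and 4707 in DMSO kidneys and 3158, 2545, 3711 and 2551 in control kidneys. Eci2 had 6557, 7655, 6245, 4734 and 5610.3 in GSK2830371 kidneys, 10839, 5469, 7217, 8457 and 4628 in DMSO kidneys and 3213, 3752, 4474 and 3736 in control kidneys. For either gene every diseased kidney was above every control, and DMSO mouse 1 was highest. Eci1 rose by 0.93 (adjusted p = 0.0068) in GSK2830371 kidneys and 1.15 (adjusted p = 0.00152) in DMSO kidneys on the log2 scale. Eci2 rose by 0.69 (adjusted p = 0.0182) and 0.89 (adjusted p = 0.00382) in the same comparisons. Among GSK2830371 libraries at 31 days or fewer both calls were lost (Eci1 0.85, adjusted p = 0.0765; Eci2 0.69, adjusted p = 0.085), and that of Eci2 also without control mouse 1 (0.61, adjusted p = 0.0582) and with Xist status as a covariate (0.53, adjusted p = 0.0605), while in DMSO kidneys Eci2 was lost among Xist-positive libraries (0.42, adjusted p = 0.165). Decr1, the dienoyl-CoA reductase of the same branch, did not pass, with log2 fold changes of 0.16 in GSK2830371 and 0.38 in DMSO kidneys and 4727 to 8295, 6108 to 12842 and 5701 to 7250.4 normalised reads in GSK2830371, DMSO and control kidneys.

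The widest split was in the electron transfer flavoprotein, the dimer that takes electrons from all the acyl-CoA dehydrogenases. Etfb, its beta subunit, had 116, 85.2, 171, 174 and 112 normalised reads in GSK2830371 kidneys, 317, 139, 128, 167 and 136 in DMSO kidneys and 1902, 1222, 1402 and 1021 in control kidneys. Etfa, its alpha subunit, had 14191, 10546, 13420.5, 13048 and 8549 in GSK2830371 kidneys, 21507, 9391, 10860.2, 17492 and 11250.1 in DMSO kidneys and 5241, 6234, 8146 and 6192 in control kidneys. No diseased kidney overlapped a control for either gene, in opposite directions, and DMSO mouse 1 was the highest of its group for both. Etfb fell by 3.40 (SE 0.30, adjusted p = 7.78e-07) in GSK2830371 kidneys and fell by 3.01 (SE 0.30, adjusted p = 2.39e-06) in DMSO kidneys on the log2 scale, the largest falls among the 37, and under every alternative. Etfa rose by 0.88 (SE 0.24, adjusted p = 0.00745) in GSK2830371 kidneys and 1.07 (SE 0.24, adjusted p = 0.00194) in DMSO kidneys. The Etfa call held under every alternative in DMSO kidneys and was lost in GSK2830371 kidneys at 31 days or fewer (0.79, adjusted p = 0.0795).

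The ratio of Etfa to Etfb reads within a library was 75 to 124 in GSK2830371 kidneys, 67.4 to 105 in DMSO kidneys and 2.75 to 6.07 in control kidneys. It too was chosen after the values were seen and has no test. Per kilobase of exon, Etfb ranked 33 and 32 of the 37 genes in GSK2830371 and DMSO kidneys, against 19 in control kidneys, and Etfa ranked 2 in either diseased group, against 6 in control kidneys. A further gene model, Gm45233, shares 53% of the Etfb exon length on the same strand and is not used here, so how reads of the shared part were assigned is not known. Etfdh, the oxidoreductase that passes the electrons on to ubiquinone, had 8352, 7100.0, 5771, 6807 and 5345 normalised reads in GSK2830371 kidneys, 10812, 4782, 4817, 8755 and 5384 in DMSO kidneys and 3534, 4973, 5378 and 5005 in control kidneys. DMSO mice 2 and 3 and GSK2830371 mouse 5 lay in the control range and the other 7 diseased kidneys above it. Its log2 fold change was 0.50 in GSK2830371 kidneys (adjusted p = 0.101) and 0.48 in DMSO kidneys (adjusted p = 0.109), and it passed in the GSK2830371 comparison with only the 2 groups in the fit (0.50, adjusted p = 0.0327), on the deposited values (0.52, adjusted p = 0.0313) and with scaling to reads outside the mitochondrial genome (0.61, adjusted p = 0.0225). That scaling also made Echs1 (0.55, adjusted p = 0.0295), Decr1 (0.50, adjusted p = 0.0285) and Etfdh (0.60, adjusted p = 0.0221) pass as higher in DMSO kidneys.

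The promoter windows of Etfa (RefSeq, GRCm38.p6, chr9:55512194-55512493, minus strand) and Etfb (chr7:43443822-43444121, plus strand) are shown because these partners diverged most. Capitals mark CCAAT on either strand, a common promoter element that occurs 2 times in each and was picked after the sequences were seen.
Etfa: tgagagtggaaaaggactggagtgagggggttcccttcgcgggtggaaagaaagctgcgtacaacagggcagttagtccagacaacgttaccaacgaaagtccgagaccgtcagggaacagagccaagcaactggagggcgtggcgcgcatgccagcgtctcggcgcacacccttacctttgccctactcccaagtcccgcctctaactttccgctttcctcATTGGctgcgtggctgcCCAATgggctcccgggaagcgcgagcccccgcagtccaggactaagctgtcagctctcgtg
Etfb: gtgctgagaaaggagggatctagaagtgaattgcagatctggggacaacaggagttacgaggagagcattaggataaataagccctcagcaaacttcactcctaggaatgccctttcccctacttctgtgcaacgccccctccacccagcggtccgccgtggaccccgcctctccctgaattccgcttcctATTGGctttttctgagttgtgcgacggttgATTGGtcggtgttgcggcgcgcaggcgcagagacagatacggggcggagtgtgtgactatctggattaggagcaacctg

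Over the members as a whole, 31 had a RefSeq promoter window, 33 windows in all. CCAAT was in 12 of the 33 (36.4%), against 37.4% of all 32851 windows. The ERR element TCAAGGTCA, searched on both strands, was in 0 of the 33, against 0.423% of all windows. The DR1 element of PPAR and RXR, a pair of AGGTCA half-sites in the same direction with 1 base between them and at most 1 mismatch, was in 1 window (3.03%), that of Fabp1, against 0.554% of all windows. These windows cover only the 300 bases around a start, and the letters are a description of the sequence and not evidence of binding.

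Pdk4, the kinase that shuts off pyruvate dehydrogenase and so favours fat over glucose as fuel, rose in both groups with wide scatter. It had 4006, 8334, 2108, 5938 and 5036 normalised reads in GSK2830371 kidneys, 37135, 2738, 1956, 12201 and 2765 in DMSO kidneys and 625, 879, 1348 and 1011 in control kidneys. All diseased kidneys lay above all controls, and DMSO mice 1 and 4, both Xist-negative, held the highest values. DMSO mouse 3, also Xist-negative, held the lowest value of its group. The Xist-negative GSK2830371 mice 1 and 5 lay inside the range of the Xist-positive mice of their group. On the log2 scale the fold change was 2.31 (95% interval 0.74 to 3.89, adjusted p = 0.0197) in GSK2830371 kidneys and 2.65 (95% interval 1.07 to 4.22, adjusted p = 0.00931) in DMSO kidneys. With Xist status as a covariate neither passed (GSK2830371 1.96, adjusted p = 0.0587; DMSO 2.13, adjusted p = 0.0629), nor did the GSK2830371 comparison at 31 days or fewer (2.27, adjusted p = 0.112). The DMSO value was 1.98 without DMSO mouse 1 (adjusted p = 0.00886), 1.56 among Xist-positive libraries (adjusted p = 0.034) and 3.55 by edgeR (adjusted p = 0.00206), all still called.

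Acot13, a thioesterase that frees fatty acids from coenzyme A, had 2799.6, 2026, 3888, 3203 and 2237 normalised reads in GSK2830371 kidneys, 3428, 2798, 1541, 2222 and 2961 in DMSO kidneys and 5792, 5453, 5299.9 and 4481 in control kidneys. Every diseased kidney lay below every control, with GSK2830371 mouse 3 the nearest. It fell by 0.93 (adjusted p = 0.00376) in GSK2830371 kidneys and fell by 1.07 (adjusted p = 0.00131) in DMSO kidneys on the log2 scale, under every alternative. Ucp2, an inner-membrane carrier also abundant in macrophages, did not pass, with 9467 to 18956 in GSK2830371 kidneys, 7599 to 24703 in DMSO kidneys and 8108 to 15822 in control kidneys.

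**Figure D4:**
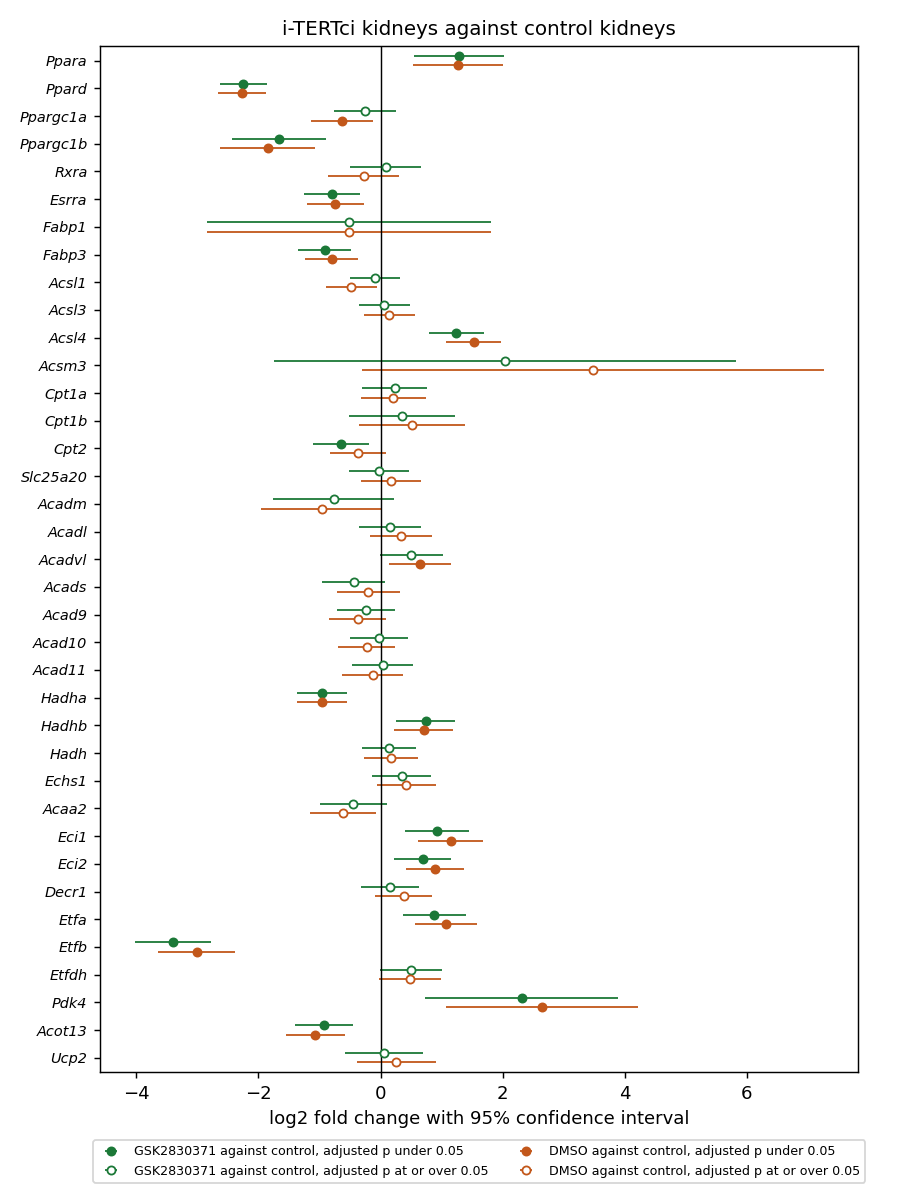
Log2 fold change of each gene against control with its 95% confidence interval, GSK2830371 above DMSO in each row; filled points passed at an adjusted p under 0.05 (limma) and open points did not. Both comparisons use the same 4 controls; Etfb and Ppard lie farthest to the left and Pdk4 farthest to the right among filled points, and the intervals of Fabp1 and Acsm3 are the widest.

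Between the diseased groups the question is whether the WIP1 inhibitor moved these genes, and none was called. The 3 Xist-positive GSK2830371 mice had 49 days on doxycycline, while DMSO mice had at most 38. The inhibitor therefore cannot be told apart from time on doxycycline in this comparison, and sex is uneven as well. By limma, 0 of the 37 genes passed in GSK2830371 against DMSO kidneys, as did 0% of the 18810 genes tested, and 0 of the 37 had an unadjusted p under 0.05, against 800 of all genes. The edgeR quasi-likelihood test called 0 genes (885 at an unadjusted p under 0.05) and DESeq2 called 1, lower, which is none of the 37. In 0 of the 37 did the 2 groups' libraries separate, against 0.484% of all genes. The differences were within 0.4 on the log2 scale for 36 of the 37 genes, the exception being Acsm3 at -1.44 (95% interval -5.01 to 2.12).

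These values bound the differences without showing that the groups are alike. Acsl1 came nearest to the threshold, at 0.39 (95% interval -0.01 to 0.78, unadjusted p = 0.0527, adjusted p = 0.994), with means of 19214 ± 1400.0 normalised reads in GSK2830371 kidneys and 15159 ± 4661 in DMSO kidneys (SD, n = 5 each). For Hadha the difference was 0.0045 (95% interval -0.38 to 0.39) and for Hadhb 0.03 (95% interval -0.43 to 0.49). Ppard differed by 0.02 (95% interval -0.35 to 0.39) and Ppara by 0.013 (95% interval -0.68 to 0.70). Those 4 intervals leave out changes as large as the ones seen against control in the same genes. Etfb, at -0.39 (95% interval -0.98 to 0.20), had the lowest estimate after Acsm3, and Ppargc1a, at 0.38 (95% interval -0.10 to 0.86), was among the highest. For Pdk4 and Fabp1 the data say little, with intervals of -1.82 to 1.15 and -2.19 to 2.19.

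**Figure D5:**
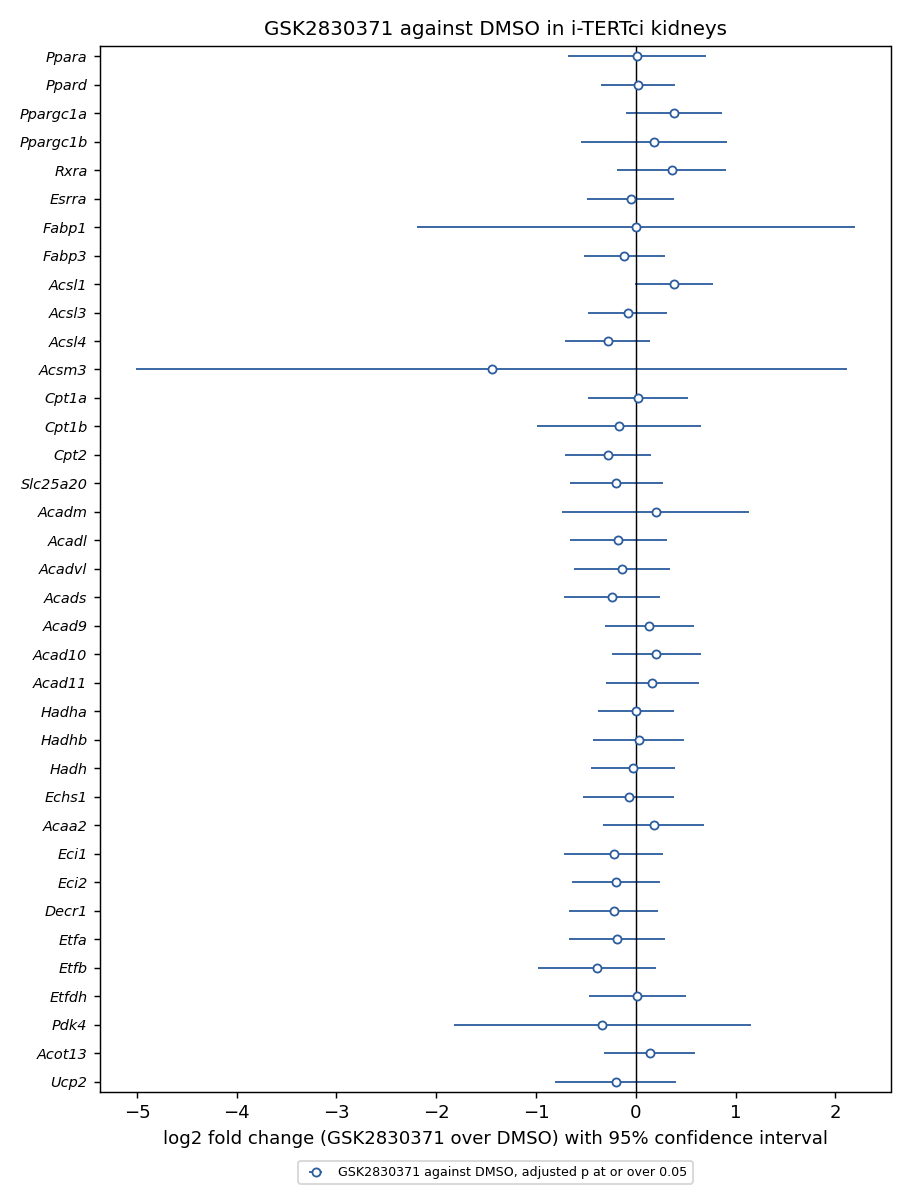
Log2 fold change of each gene in GSK2830371 against DMSO kidneys with its 95% confidence interval (n = 5 mice each). All 37 points are open, since none passed, and every interval holds 0; that of Acsm3 is the widest.

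Neighbouring pathways were read the same way, from lists of other genes, with counts against the background shares above. The lists were chosen with earlier results of these data known, so their counts are descriptions and not tests. From each list, up to 2 called genes with the smallest p per comparison are named. A gene named for 1 group can therefore have changed in the other as well, where its value is not given. Of 15 further PPAR target genes, 4 rose and 0 fell in GSK2830371 kidneys and 6 rose and 0 fell in DMSO kidneys, with median log2 fold changes of 0.69 and 0.72. Plin5, a lipid droplet coat protein, rose in both (1.21 in GSK2830371 and 1.19 in DMSO kidneys), and Cyp4a14, a fatty acid omega-hydroxylase, rose by 1.68 in GSK2830371 kidneys. Of 16 peroxisomal oxidation genes, 4 rose and 5 fell in GSK2830371 kidneys and 5 rose and 5 fell in DMSO kidneys. Crat, the carnitine acetyltransferase, fell in both (-1.15 in GSK2830371 and -1.14 in DMSO kidneys). The list of PPAR targets shares some genes with the peroxisomal list and with that of other mitochondrial genes.

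Of 33 other mitochondrial oxidation genes, 4 rose and 10 fell in GSK2830371 kidneys and 5 rose and 13 fell in DMSO kidneys, with medians of -0.44 and -0.46. Bdh1, the ketone body dehydrogenase, averaged 3687 ± 1792 normalised reads in GSK2830371 kidneys, 3321 ± 884 in DMSO kidneys and 18317 ± 2199 in control kidneys (SD, n = 5, 5 and 4), with log2 fold changes of -2.50 in GSK2830371 and -2.49 in DMSO kidneys. Pdk2, a relative of Pdk4, fell by 1.52 in DMSO kidneys, the opposite way to Pdk4, and Acsl5, another acyl-CoA synthetase, rose by 1.24 in GSK2830371 kidneys. Of 22 further regulators, 4 rose and 2 fell in GSK2830371 kidneys and 3 rose and 7 fell in DMSO kidneys. Tfam, which maintains mitochondrial DNA, rose in both (0.76 in GSK2830371 and 0.82 in DMSO kidneys), Sirt1, a deacetylase that acts on PGC-1 alpha, rose by 0.98 in GSK2830371 kidneys, and Hnf4a, a nuclear receptor of proximal tubule identity, fell by 1.14 in DMSO kidneys.

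Fatty acid synthesis, the reverse process, had 2 genes that rose and 4 that fell of 17 in GSK2830371 kidneys, and 1 that rose and 6 that fell in DMSO kidneys. Fads2, a desaturase of polyunsaturated chains, fell in both (-1.27 in GSK2830371 and -1.50 in DMSO kidneys), Mlxipl, a carbohydrate-responsive activator of lipid synthesis, fell by 1.12 in GSK2830371 kidneys, and Fads1 fell by 0.71 in DMSO kidneys. Among 15 nuclear genes that stand for mitochondrial content, 3 rose and 3 fell in GSK2830371 kidneys and 4 rose and 4 fell in DMSO kidneys. Timm23, of the inner-membrane import channel, rose in both (0.78 in GSK2830371 and 0.86 in DMSO kidneys), and the prohibitin Phb2 fell in both (-0.89 in GSK2830371 and -0.77 in DMSO kidneys). In GSK2830371 against DMSO kidneys limma called 0 genes of any of these lists, as it did of all 18810 genes tested. Unadjusted p values under 0.05 were found for 6 of the 22 further regulators, beside 800 of all genes. The other lists had 0 to 2 such genes each.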

How the data were processed

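RNA was sequenced from whole kidney. Per the submitters' processing notes, reads were handled with FastQC, Trimmomatic, STAR and DESeq2 on the mm10 build, without versions; for the counter, annotation and strandedness nothing is stated: they are not given in sources used here. The 2 deposited tables hold signal per gene, which the authors made as whole reads divided by 1 size factor per library; each table covers 9 libraries and both hold the same 4 controls. All values were whole multiples of their library's step (tolerance 0.001; 100% of values), so reads were recovered, and control reads matched between the tables (0 differed).

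The 23682 genes in both tables were used; the 539 and 482 genes in 1 table only were left out. Median-of-ratios size factors over all 14 libraries scaled the reads, which were taken as log2(value + 1). After edgeR's filterByExpr, 18810 genes entered 1 limma 3.58.1 fit by group (trend, robust), two-sided, with Benjamini-Hochberg adjustment over all of them and a threshold of 0.05. Fold changes, standard errors and 95% intervals are on that log2 scale, which understates changes of low genes. The self-test on simulated data recovered known changes. Alternatives were edgeR 4.0.16 and DESeq2 1.42.0 on the recovered reads, other scalings, pseudocounts, filters and sample subsets, an Xist covariate, a replicate block, and leaving out each mouse (R 4.3.3; Python 3.11.15).

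The labels do not pair mice of different groups. Members and lists were chosen with earlier results of these data known. All 37 members are named, and from each list up to 2 called genes with the smallest p per comparison, except some that are not reported here. Exon lengths and overlaps are from GENCODE M21 (GRCm38), and promoter windows from RefSeq (GRCm38.p6).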

Additional observations from a re-analysis of the deposited data

Results flagged for a closer look

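In 7 of 111 sets of values (a gene in a group), the highest or lowest mouse stood apart from the rest of its group by Dixon's test at the 95% level. Chance alone flags about 1 in 20 sets, or 5.55 of 111. Ppara, whose receptor drives oxidation genes, was lowest in control mouse 1 at 542 normalised reads, with 1470.1 to 1798 in the other controls. Acsl3 was highest in DMSO mouse 1 at 713, with 618 to 641 in the others, and the isomerase Eci1 was highest in the same mouse at 12564, with 4707 to 6147 in the others. Acsl4 was lowest in DMSO mouse 5 at 3236, with 6152 to 7383 in the others. GSK2830371 mouse 5 was lowest for Acadl at 8199.8, with 11302 to 12787 in the others, and for the dienoyl-CoA reductase Decr1 at 4727, with 7116 to 8295 in the others. Ucp2 was highest in GSK2830371 mouse 2 at 18956, with 9467 to 11286 in the others. GSK2830371 mouse 2 also had the highest macrophage marker sum of its group, 35461, whose part in the Ucp2 value was not tested.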

How the results depend on the processing

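Each comparison was repeated under 22 settings, some of which overlap. The fit on the deposited values takes each table alone, so it too holds only the 2 groups compared. At 31 days or fewer the DMSO group lacks only mouse 4, as when that mouse is left out. Against control, Ppard, Ppargc1b, Fabp3, Acsl4, Hadha, Etfb and Acot13 were called in GSK2830371 kidneys under every setting (7 genes), and the same 7 with Eci1 and Etfa in DMSO kidneys (9 genes). Of 814 values per comparison, 16 lost and 10 gained a call in GSK2830371 kidneys, and 32 lost and 18 gained one in DMSO kidneys. No called value changed sign. Over all comparisons, GSK2830371 against DMSO included, 152 values that passed in neither setting did. The DMSO count of genes called higher, 8, was 5 with Xist status as a covariate (19% of all genes) and 4 among Xist-positive libraries (16.5%), and the GSK2830371 count, 7, was 1 at 31 days or fewer (19.1%). Leaving out each mouse gave 5 to 7 higher and 7 to 8 lower in GSK2830371 kidneys, 6 to 9 higher and 7 to 9 lower in DMSO kidneys, and 0 in GSK2830371 against DMSO kidneys. Deviations of same-numbered mice from their group means correlated at -0.0605 to 0.335. The correlation was over 0.1 in 0 of 4 pairs for DMSO against control and 1 of 4 for GSK2830371 against control. For GSK2830371 against DMSO it was over 0.1 in 3 of 5 pairs. In GSK2830371 against control, 8 of 8 libraries correlated best with their own number. In DMSO against control 4 of 8 did, and in GSK2830371 against DMSO 4 of 10. These values do not settle whether the numbers pair mice. The main fit has no block because the labels do not pair mice. With the replicate number as a block the counts were 9 higher and 8 lower in GSK2830371 kidneys (23% and 21.9% of all genes), 7 and 9 in DMSO kidneys (23.4% and 22.4%), and 0 between them; Pdk4 in DMSO kidneys then had 2.91 (adjusted p = 0.0532). The cause of these changes was not tested. Sex and time on doxycycline are uneven between groups of 4 or 5 mice, fewer mice remain in the subsets, and genes with few reads, such as Fabp1 and Cpt1b, allow only wide intervals.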
